A study of Mus musculus with 4 samples.

Results

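The genes described here were 33 components and targets of the hypoxia-inducible factor (HIF) pathway, chosen by symbol, with the targets taken from outside glycolysis. They were chosen with earlier results of these data known. All 33 symbols were found among the 17013 genes with deposited values, and all 33 passed the filter on low values that left 12470 genes for testing. The lowest value of any of them in a library was 1.25 CPM (reads per 1 M reads of the library, after the scaling of the authors), for Adm in a Con library, so that none entered the test through the Fat group alone. By role, 5 were HIF subunits or upstream regulators, 3 were HIF prolyl hydroxylases, 4 encoded mitophagy or mitochondrial proteins, 4 collagen-modifying enzymes, 2 histone demethylases and 7 regulators of transcription or growth, and 8 were other targets. The last group also held Ak4, which encodes a mitochondrial enzyme.

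Bulk RNA sequencing was carried out on macrophages grown from wild-type C57BL/6 mouse bone marrow with the growth factor M-CSF, seeded on porous inserts and treated for 24 h. Both groups received artificial necrotic bone fluid (aNBF), a mimic of the material released by dead bone and marrow, so that the control cells were not resting macrophages. Abdominal fat was digested, freeze-thawed and centrifuged into layers. Con cells were cultured over the middle layer of that preparation, the fat control medium, and Fat cells over its fatty top layer, the high-fat-containing medium. The comparison was between cells over these 2 media, and RNA was taken from whole inserts. The paper reports that only part of the macrophages in the high-fat-containing medium stained for fat, so Fat libraries may mix cells with and without it. That staining was done on smaller inserts than those used for RNA. Each group had 2 libraries at 1 time point. The series had no libraries from cells lacking aNBF, none with uptake blocked and none at a defined oxygen level. The paper inhibited uptake with Latrunculin A in cells measured by staining and qPCR. The labels did not state whether the libraries of a group came from separate mice or cultures, and the p-values then measure only the spread between these libraries, which may be technical.

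The HIF transcription factor is a pair of an oxygen-regulated alpha subunit, such as HIF-1α (Hif1a) or HIF-2α (Epas1), and the constant partner ARNT. With oxygen present, prolyl hydroxylases mark the alpha subunit for capture by the VHL ubiquitin ligase and destruction, while factor inhibiting HIF (Hif1an) hydroxylates the subunit and blocks its transactivation. Regulation is therefore largely at the level of protein stability, which RNA sequencing does not measure. The RNA of target genes is widely used as a readout of HIF activity instead. In macrophages, the alpha subunits are also induced or stabilised by inflammatory signals when oxygen is not limiting.

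The libraries held between 33573852 and 40785872 reads, and 1 read was worth between 0.0244 and 0.0295 CPM. Macrophage markers were abundant, with 6 of the 7 listed summing to 34458 and 32519 CPM in the Con libraries and to 27191 and 25675 CPM in the Fat libraries. All 14 adipocyte markers were listed and summed to 7404 and 8610 CPM in Con and to 8806 and 8916 CPM in Fat, mostly as Lpl, which macrophages also express, and 5 of them (Adipoq, Cidea, Lep, Pck1 and Adrb3) were at 0 in both Con libraries. The 11 of these markers that never passed 100 reads in a Con library summed to 7 and 10 reads in Con, and to 180 and 119 reads, or 4.82 and 2.90 CPM, in Fat replicates 1 and 2. Of the macrophage markers Fcgr1 and Mertk were called lower in Fat by limma, of the adipocyte markers Cidec was called higher, and of the fibroblast and endothelial markers Dcn, Postn and Vwf were called lower. Fibroblast markers summed to between 551 and 696 CPM and neutrophil markers to between 316 and 372 CPM over the 4 libraries. In bulk RNA, fewer cells of a type and less RNA per cell cannot be told apart.

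Of the 33 genes, 12 rose and 0 fell in Fat at an adjusted p under 0.05 (limma on log2(CPM + 0.1), Benjamini-Hochberg over the 12470 genes, two-sided), and 21 were not called. Across all tested genes, 3.99% were called higher and 5% lower. Since the 33 were chosen with earlier results known, the counts set beside all genes describe the list and are not independent support. The median log2 fold change, Fat minus Con, was 0.18 over the 33 genes and 0.01 over all tested genes. Counted without a threshold, 29 of the 33 had a positive log2 fold change and 4 a negative one, against 53.6% positive over all tested genes. Both Fat libraries lay above both Con libraries for 22 of the 33, against 29.4% of all tested genes, and below them for 1, against 26.2%. At an unadjusted p of at most 0.05, 16 of the 33 were higher and 0 lower, against 11.8% and 12.4% of all tested genes. edgeR's quasi-likelihood test and DESeq2, both run on the reads recovered from the CPM values, called 12 higher and 0 lower each, against 3.93% and 5.2% of all tested genes with edgeR and 3.69% and 4.81% with DESeq2.

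The 12 genes that rose fell into 2 ranges of size. Ankrd37, Egln3, Adm and Ak4 had log2 fold changes between 0.93 and 1.85, while Mif, Bnip3, P4ha1, Fam162a, Ero1l, Mxi1, Egln1 and Kdm3a lay between 0.29 and 0.50. The 4 with the larger changes were also the 4 lowest of the 33 by level per length in Con, with mean TPM (which also scales for transcript length) between 1.62 for Egln3 and 4.17 for Ankrd37. At the other end, 9 of the 33 had a mean of at least 50 TPM in Con, led by Tpd52 with 183 ± 0.821 TPM (SD, n = 2) and Bnip3l with 142 ± 5.02 TPM. Without Fat replicate 2, 6 of the 33 were called higher, against 1.73% of all tested genes, and without the mean-variance trend 2 were (Ankrd37 and Ak4), against 0.152%. Of the 12 genes that rose, 9 were higher in Fat replicate 2 than in Fat replicate 1, as were 22 of the 33 and 6324 of the 12470 tested genes, whereas the rare adipocyte markers above had more reads in Fat replicate 1, and the part of either in the results was not tested.

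**Figure D1:**
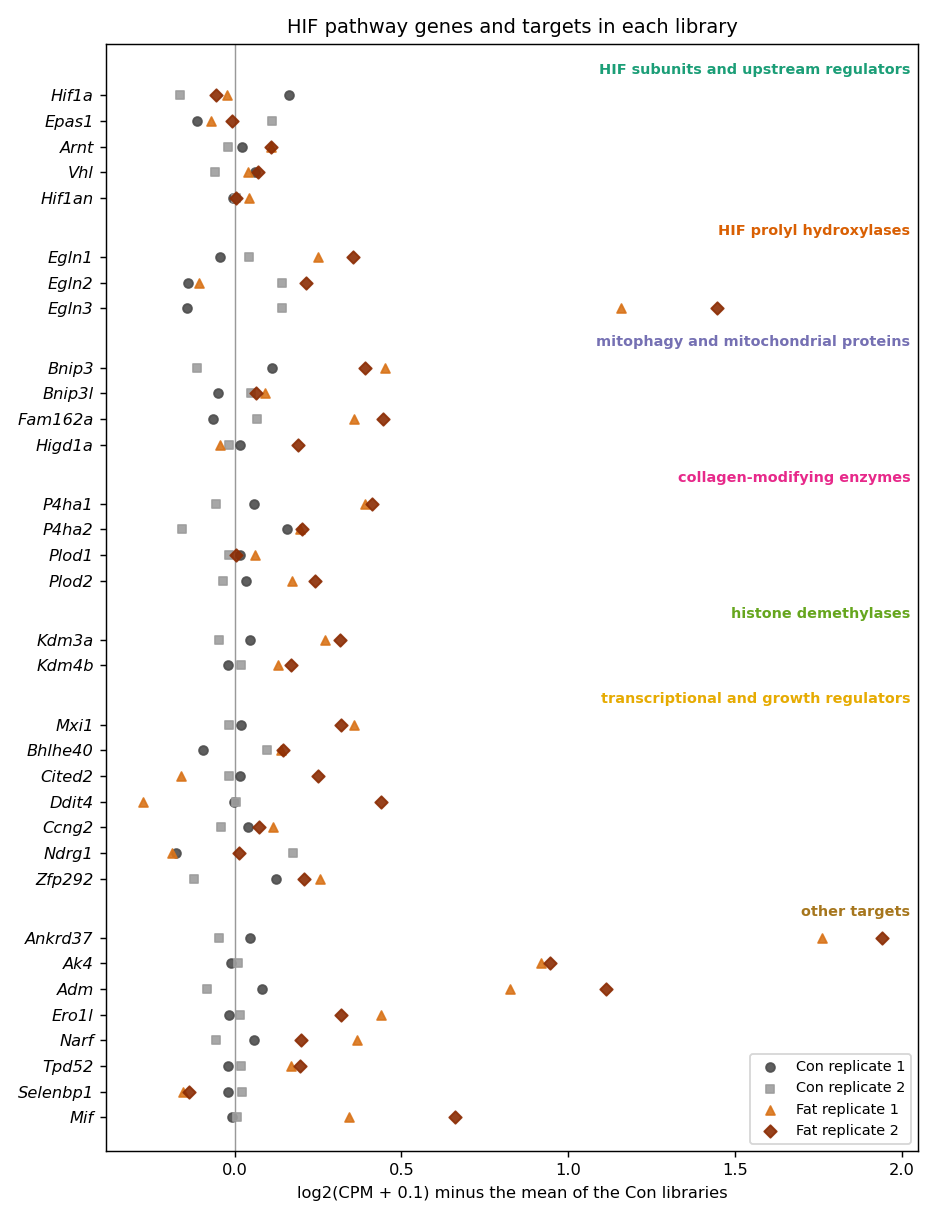
Each gene is a row, grouped by role, and each point is 1 library's log2(CPM + 0.1) minus the mean of the Con libraries, with circles and squares for the Con and triangles and diamonds for the Fat replicates. The Fat points of Ankrd37, Egln3, Adm and Ak4 stand apart from the Con points, while those of Hif1a, Epas1, Vhl and Hif1an overlap them.

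The HIF recognition letters near the start sites are shown for 6 of the genes, the first 4 and Mif because they rose and Hif1a because it did not. The sequences are the 250 bases upstream of the RefSeq start of each gene in build GRCm38.p6, printed 5′ to 3′ along the gene's own strand. Capitals mark each ACGTG or GCGTG on either strand, the core letters of the hypoxia response element, so that a match on the opposite strand reads CACGT or CACGC. The windows were chr8:45999851-46000100 (minus strand) for Ankrd37, chr12:54203875-54204124 (minus) for Egln3, chr7:110627407-110627656 (plus) for Adm, chr7:138909507-138909756 (minus) for Bnip3, chr10:75860278-75860527 (minus) for Mif and chr12:73907617-73907866 (plus) for Hif1a.
Ankrd37: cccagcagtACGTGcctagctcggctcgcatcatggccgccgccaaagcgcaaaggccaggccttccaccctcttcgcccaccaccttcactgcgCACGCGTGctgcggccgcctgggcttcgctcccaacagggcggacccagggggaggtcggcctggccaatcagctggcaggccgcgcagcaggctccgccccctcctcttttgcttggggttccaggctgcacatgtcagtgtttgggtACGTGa
Egln3: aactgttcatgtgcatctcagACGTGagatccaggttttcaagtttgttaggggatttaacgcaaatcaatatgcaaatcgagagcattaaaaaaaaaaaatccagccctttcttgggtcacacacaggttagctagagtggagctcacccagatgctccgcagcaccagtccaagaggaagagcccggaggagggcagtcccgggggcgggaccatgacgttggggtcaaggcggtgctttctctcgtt
Adm: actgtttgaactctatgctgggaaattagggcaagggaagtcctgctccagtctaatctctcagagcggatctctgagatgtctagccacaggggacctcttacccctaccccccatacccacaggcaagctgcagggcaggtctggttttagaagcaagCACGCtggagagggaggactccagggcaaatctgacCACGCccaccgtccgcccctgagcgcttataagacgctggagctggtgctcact
Bnip3: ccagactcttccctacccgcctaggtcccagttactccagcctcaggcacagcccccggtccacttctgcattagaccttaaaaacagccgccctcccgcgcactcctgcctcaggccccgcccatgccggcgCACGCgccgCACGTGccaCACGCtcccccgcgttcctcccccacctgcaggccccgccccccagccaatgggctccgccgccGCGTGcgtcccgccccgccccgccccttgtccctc
Mif: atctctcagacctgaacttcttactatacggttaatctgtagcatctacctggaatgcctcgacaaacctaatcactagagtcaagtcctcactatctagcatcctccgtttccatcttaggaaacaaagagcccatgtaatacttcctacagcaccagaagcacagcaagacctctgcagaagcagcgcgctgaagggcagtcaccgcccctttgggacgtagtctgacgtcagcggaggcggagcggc
Hif1a: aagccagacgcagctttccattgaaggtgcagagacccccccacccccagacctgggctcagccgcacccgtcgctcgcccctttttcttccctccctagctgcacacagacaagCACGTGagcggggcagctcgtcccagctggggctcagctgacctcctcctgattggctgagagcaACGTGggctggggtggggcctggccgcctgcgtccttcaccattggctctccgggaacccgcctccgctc
The Ankrd37 window held 2 ACGTG and 2 GCGTG matches, the Egln3 window 1 ACGTG and the Adm window 2 GCGTG. The Bnip3 window held 2 ACGTG and 3 GCGTG matches, with its ACGTG matches being the opposite strands of 1 palindromic CACGTG, the letters of the E-box that other factors also bind. No match was in the Mif window, and the Hif1a window held 3 ACGTG matches, of which 1 CACGTG supplied a pair, although its RNA was not called.

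A RefSeq window was found for 26 of the 33 genes, all 12 of those that rose among them. Some windows overlapped annotated exons. Those of Higd1a and Ccng2 and window 3 of Mxi1 lay wholly in exons, and that of Fam162a did for 160 bases. ACGTG was in a window of 16 of the 26, and ACGTG or GCGTG in a window of 23. A gene was counted if any of its windows held the match. By comparison, ACGTG was in 18.5% and either motif in 41.5% of all 27025 genes with a window. The shares were 25.01% and 61.4% of the 9349 tested genes with a window. The E-box letters CACGTG, whose match counts as an ACGTG on both strands, were in 6.86% of all genes with a window. They were in 9.95% of the tested genes with a window and in 5 of the 26 genes described here. Among the genes that rose, 9 of 12 had ACGTG, and among those not called with a window, 7 of 14 had it. ACGTG or GCGTG was in a window of 11 of those 12 and of 12 of those 14, so the 2 groups differed little by either motif. Many of the 33 genes are known as HIF targets partly through such letters, so these shares are a description of the list. A match in 250 bases does not show that a factor is bound there.

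Of the HIF subunits and upstream regulators, 0 of 5 were called by limma, edgeR or DESeq2, and 0 had an unadjusted limma p of at most 0.05. Their median log2 fold change was 0.02. Hif1a, which encodes the HIF-1α subunit, had 220.2 and 176 CPM in Con (replicates 1 and 2, in this order throughout) against 193 and 189 CPM in Fat. Both Fat libraries lay between the Con libraries, and the log2 fold change was -0.04 ± 0.10 (SE; 95% confidence interval -0.27 to 0.19; limma, adjusted p = 0.849). Epas1, which encodes HIF-2α, was at 31.3 and 36.6 CPM in Con and at 32.2 and 33.6 CPM in Fat. Its Fat values also lay inside the Con range (log2 fold change -0.04 ± 0.09 SE, interval -0.24 to 0.16, limma adjusted p = 0.822). Per length, Epas1 made up 11.2% and 15.6% of the summed TPM of the alpha subunits in Con and 12.9% and 13.6% in Fat, so that Hif1a was the main alpha subunit RNA in every library and the shares overlapped between the groups.

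Arnt, the gene of the partner subunit, was at 49.9 and 48.4 CPM in Con and at 53.0 and 53.0 CPM in Fat. The groups did not overlap, but the difference did not pass the test (log2 fold change 0.11 ± 0.06 SE, interval -0.02 to 0.24, limma adjusted p = 0.297). Vhl, the substrate-binding part of the ubiquitin ligase, was at 34.4 and 31.6 CPM in Con and 33.9 and 34.6 CPM in Fat (log2 fold change 0.06 ± 0.07 SE, limma adjusted p = 0.675). Hif1an, the asparaginyl hydroxylase known as factor inhibiting HIF, was at 45.1 and 45.4 CPM in Con and 46.6 and 45.3 CPM in Fat (log2 fold change 0.02 ± 0.06 SE, limma adjusted p = 0.852). Values of both genes overlapped between Con and Fat. The confidence intervals of Vhl (-0.11 to 0.22) and Hif1an (-0.11 to 0.16) set the size of change that these libraries could have missed.

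Of the prolyl hydroxylases, the oxygen sensors of the pathway, Egln3 and Egln1 rose and Egln2 was not called. Egln3, which encodes PHD3 and is itself a strongly induced HIF target, was at 1.80 and 2.21 CPM in Con (61 and 83 reads) and at 4.58 and 5.61 CPM in Fat (171 and 230 reads). Both Fat libraries were above both Con libraries, and the ratio of the mean CPM values was 2.54 (log2 fold change 1.30 ± 0.17 SE, limma adjusted p = 0.00726). Egln1, which encodes PHD2, the main hydroxylase of HIF-1α in most cells, was at 51.6 and 54.9 CPM in Con and at 63.3 and 68.1 CPM in Fat. The groups were again apart, by a smaller step (log2 fold change 0.30 ± 0.06 SE, limma adjusted p = 0.0304), and this call was lost without Con replicate 1 (adjusted p = 0.105) and without Fat replicate 2 (adjusted p = 0.163).

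Egln2, which encodes PHD1, was at 32.4 and 39.5 CPM in Con and at 33.2 and 41.5 CPM in Fat. In each group replicate 2 was above replicate 1 by more than the groups differed (log2 fold change 0.05 ± 0.13 SE, interval -0.24 to 0.35, limma adjusted p = 0.84). On the TPM scale, the 3 hydroxylases together summed to 67.2 and 75.4 TPM in Con and to 78.6 and 91.1 TPM in Fat. Egln3 supplied 2.19% and 2.35% of that sum in Con and 4.83% and 5.10% in Fat, so that Egln1 and Egln2 held nearly all of the hydroxylase RNA in both groups. The Egln2 share was 50.1% and 53.3% in Con and 44.5% and 47.9% in Fat.

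**Figure D2:**
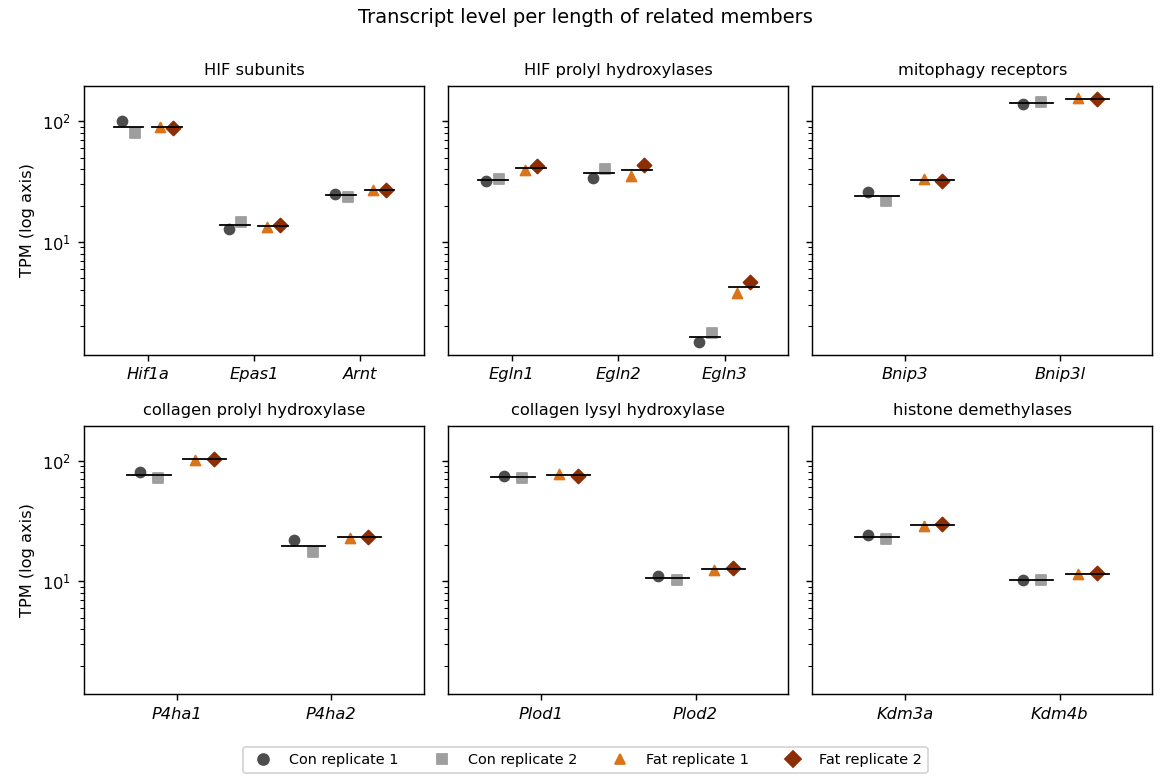
TPM on a log axis for related members in 6 panels, with 1 point per library and a line at each group's mean. Egln3 moves from 1.62 to 4.22 mean TPM but stays far below Egln1 and Egln2, and P4ha1 stands above P4ha2 in every library.

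Among the genes grouped as mitophagy and mitochondrial proteins, 2 of 4 rose, with the mitochondrial Ak4 counted among the other targets below. Bnip3, a receptor that directs mitochondria to autophagy, was at 20.8 and 17.8 CPM in Con and at 26.3 and 25.3 CPM in Fat. The Fat libraries were above the Con libraries (log2 fold change 0.42 ± 0.09 SE, limma adjusted p = 0.032), and the call was lost without any 1 of Con replicate 2, Fat replicate 1 and Fat replicate 2 (adjusted p between 0.0743 and 0.0853). Of the 75-base stretches of Bnip3 transcripts, 66.5% were also found in other genes, so its level depends on how such reads were counted. Bnip3l, its relative also called NIX, was at 205 and 219.7 CPM in Con and at 226 and 222 CPM in Fat without passing the test (log2 fold change 0.08, limma adjusted p = 0.475), and 36.4% of its stretches were shared. Bnip3 supplied 15.8% and 13.0% of the summed TPM of the pair in Con and 17.7% and 17.4% in Fat.

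Fam162a, a mitochondrial protein linked to cell death under low oxygen, was at 19.4 and 21.3 CPM in Con and at 26.0 and 27.7 CPM in Fat. The groups were apart (log2 fold change 0.40 ± 0.08 SE, limma adjusted p = 0.0239), and the call was lost without Con replicate 1 (adjusted p = 0.0842) and without Fat replicate 2 (adjusted p = 0.108). An exon of Wdr5b on the opposite strand overlaps Fam162a, and the strand setting of the counting is not given in the sources used here. Higd1a, a protein of the mitochondrial respiratory chain complexes, was at 15.1 and 14.7 CPM in Con and at 14.5 and 17.0 CPM in Fat, with the Fat libraries on either side of the Con libraries (log2 fold change 0.07, limma adjusted p = 0.704), and 24.0% of its stretches were shared.

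Of the collagen-modifying enzymes, 1 of 4 rose. P4ha1, a catalytic alpha subunit of collagen prolyl 4-hydroxylase, was at 147 and 136 CPM in Con and at 186 and 189 CPM in Fat. Both Fat libraries were above both Con libraries (log2 fold change 0.40 ± 0.06 SE, limma adjusted p = 0.00917), and the call held without each library in turn. P4ha2, the alternative alpha subunit, was at 23.7 and 19.0 CPM in Con and at 24.4 and 24.5 CPM in Fat (log2 fold change 0.20, limma adjusted p = 0.306). P4ha1 was the main alpha subunit throughout, with 78.3% and 80.6% of the summed TPM of the pair in Con and 81.5% and 81.7% in Fat.

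The collagen lysyl hydroxylases Plod1 and Plod2 were not called. Plod2, the form tied to stable collagen cross-links and a known HIF target, was at 18.7 and 17.8 CPM in Con and at 20.6 and 21.6 CPM in Fat. Its groups did not overlap, and its interval, 0.03 to 0.38, was above 0 before the correction for all genes but not after it (log2 fold change 0.21 ± 0.08 SE, limma adjusted p = 0.145). Plod1 was at 111 and 108 CPM in Con and at 114 and 109.6 CPM in Fat, with a log2 fold change of 0.03.

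Of the histone demethylases, Kdm3a rose and Kdm4b was not called. Kdm3a, which removes methyl groups from histone H3 lysine 9, was at 54.7 and 51.2 CPM in Con and at 63.8 and 65.9 CPM in Fat. The groups were apart (log2 fold change 0.29 ± 0.06 SE, limma adjusted p = 0.0273), but the call was lost with the TPM values (adjusted p = 0.0525) and without any 1 of Con replicate 2, Fat replicate 1 and Fat replicate 2 (adjusted p between 0.0553 and 0.132). Kdm4b was at 21.4 and 21.99 CPM in Con and at 23.8 and 24.4 CPM in Fat, which also did not overlap (log2 fold change 0.15, limma adjusted p = 0.244). Kdm3a held 70.5% and 68.5% of their summed TPM in Con and 71.5% and 71.6% in Fat.

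**Figure D3:**
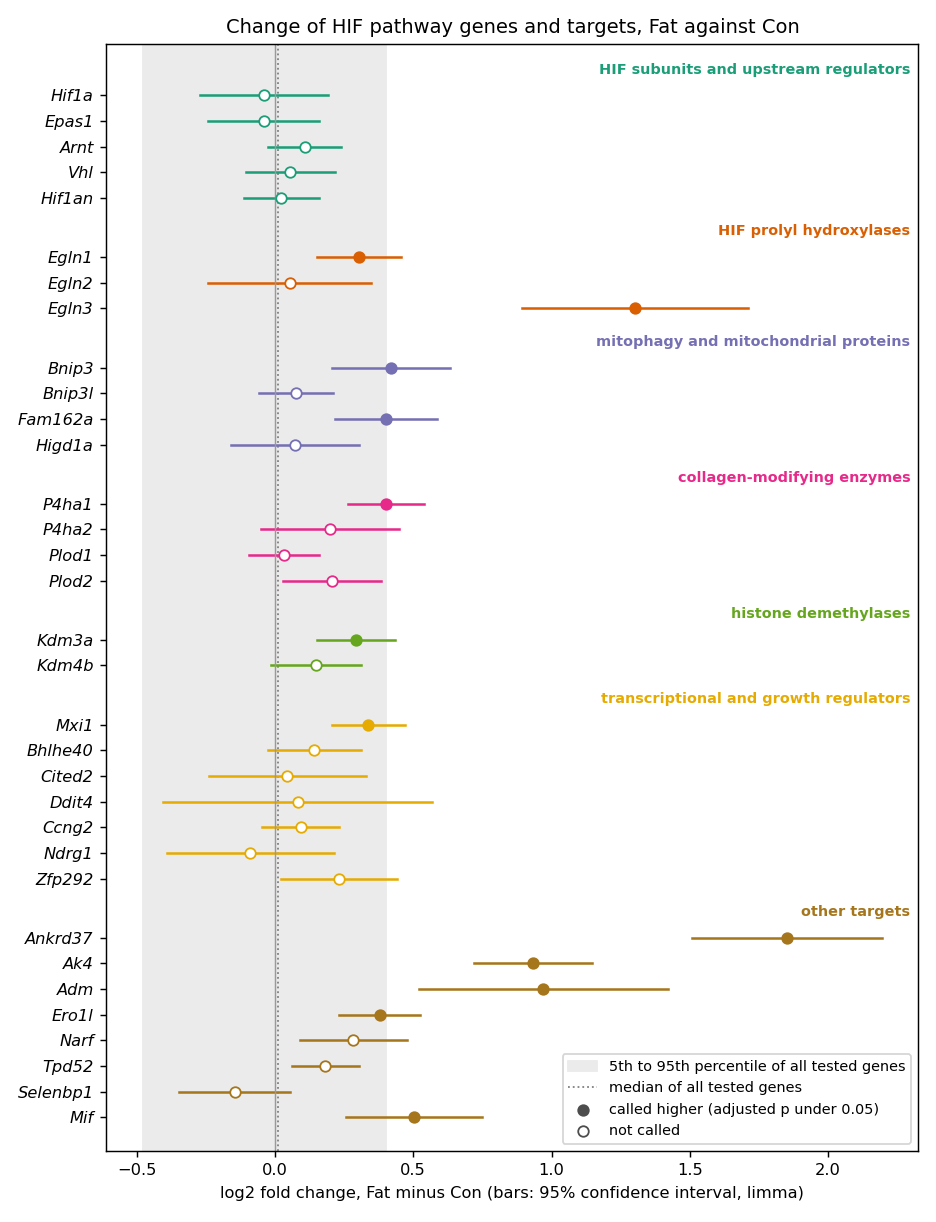
Log2 fold change, Fat minus Con, of each gene with its 95% confidence interval from limma, filled where the adjusted p was under 0.05. The grey band spans the 5th to 95th percentile of all tested genes, -0.48 to 0.40, and Ankrd37, Egln3, Adm and Ak4 lie beyond it with their whole intervals.

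Among the regulators of transcription and growth, 1 of 7 rose. Mxi1, a MAX-binding protein that opposes MYC, was at 50.6 and 49.3 CPM in Con and at 64.0 and 62.3 CPM in Fat. The replicates of each group lay close together and the groups were apart (log2 fold change 0.34 ± 0.06 SE, limma adjusted p = 0.0145), and the call held without each library in turn. Zfp292, a zinc finger protein, was at 32.4 and 27.3 CPM in Con and at 35.5 and 34.4 CPM in Fat, with a log2 fold change of 0.23 that did not pass the test (limma adjusted p = 0.165).

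The other regulators were not called. Bhlhe40, a transcriptional repressor, had a log2 fold change of 0.14 and Ccng2, an inhibitory cyclin, of 0.09, both with Fat above Con in each library. Bhlhe40 overlaps an exon of 0610040F04Rik on the opposite strand. Ddit4, the mTORC1 inhibitor REDD1, was at 8.20 and 8.24 CPM in Con and at 6.78 and 11.2 CPM in Fat. Its Fat libraries lay on opposite sides of the Con values (log2 fold change 0.08 ± 0.21 SE, interval -0.40 to 0.57). Cited2, which competes with HIF for the coactivators p300 and CBP, showed the same arrangement with 46.2 and 45.1 CPM in Con and 40.8 and 54.3 CPM in Fat (log2 fold change 0.04). Ndrg1, a stress-response gene and also a HIF target, was at 15.5 and 19.8 CPM in Con and at 15.3 and 17.6 CPM in Fat (log2 fold change -0.09).

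The remaining targets held the largest change of the 33 genes, and 5 of 8 rose. Ankrd37, an ankyrin repeat protein and a direct HIF target, was at 1.80 and 1.68 CPM in Con (61 and 63 reads) and at 6.14 and 6.95 CPM in Fat (229 and 285 reads). Both Fat libraries lay far above the Con libraries, at a ratio of means of 3.76 (log2 fold change 1.85 ± 0.15 SE, limma adjusted p = 0.0025). Exons of Lrp2bp and Ufsp2 overlap Ankrd37 on the opposite strand, so its reads are uncertain in the same way as those of Fam162a. Ak4, a mitochondrial adenylate kinase, was at 6.96 and 7.06 CPM in Con and at 13.3 and 13.6 CPM in Fat. Its replicates differed by little beside the step between the groups (log2 fold change 0.93 ± 0.09 SE, limma adjusted p = 0.00342). The calls of Ankrd37 and Ak4 held without the mean-variance trend and without each library in turn.

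Adm, which encodes the vasodilator peptide adrenomedullin, was at 1.42 and 1.25 CPM in Con (48 and 47 reads) and at 2.44 and 3.0 CPM in Fat (91 and 123 reads). The groups were apart (log2 fold change 0.97 ± 0.19 SE, limma adjusted p = 0.0243), and the call was lost without Con replicate 2 (adjusted p = 0.0559) and without Fat replicate 2 (adjusted p = 0.127). Ero1l, the oxidase that drives disulphide bond formation in the endoplasmic reticulum, was at 50.6 and 51.8 CPM in Con and at 69.4 and 63.9 CPM in Fat. The lower Fat library was still above both Con libraries (log2 fold change 0.38 ± 0.06 SE, limma adjusted p = 0.0144). Mif, the cytokine macrophage migration inhibitory factor, was at 21.7 and 21.9 CPM in Con and at 27.7 and 34.6 CPM in Fat. Its Fat libraries differed from each other by about as much as the lower one differed from Con (log2 fold change 0.50 ± 0.11 SE, limma adjusted p = 0.0289), the call was lost without Con replicate 1 (adjusted p = 0.0596) and without Fat replicate 2 (adjusted p = 0.0942), and 70.5% of its stretches were shared with other genes.

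The last 3 genes were not called. Narf, a nuclear prelamin-binding protein, was at 26.8 and 24.8 CPM in Con and at 33.3 and 29.6 CPM in Fat (log2 fold change 0.28, limma adjusted p = 0.08). Tpd52, a protein of vesicle traffic and lipid storage, was at 212 and 217 CPM in Con and at 241 and 246 CPM in Fat (log2 fold change 0.18, limma adjusted p = 0.0765). Both were higher in Fat in each library but had an adjusted p above the threshold. Selenbp1, a methanethiol oxidase, was the only 1 of the 33 with both Fat libraries, 11.01 and 11.15 CPM, below both Con libraries, 12.1 and 12.4 CPM (log2 fold change -0.15, limma adjusted p = 0.357), and 84.4% of its stretches were shared, mainly with Selenbp2. With the 5 genes sharing over 20% of their stretches left out (Bnip3, Bnip3l, Higd1a, Selenbp1 and Mif), 10 of 28 rose and the median log2 fold change was 0.19.

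Other HIF-linked genes, in lists also chosen with earlier results of these data known, were counted in the same way. Of the 13 tested genes of the HIF machinery outside the list (VHL partners, coactivators, chaperones and others), 1 rose and 0 fell, a share near the 3.99% of all tested genes called higher, with a median log2 fold change of 0.05. The gene that rose was Hsp90aa1, an inducible chaperone that also stabilises HIF-1α (77.9 ± 1.57 CPM in Con and 96.0 ± 2.64 CPM in Fat, SD, n = 2 each; log2 fold change 0.30, limma adjusted p = 0.0186), with 72.5% of its stretches shared. Of the 28 hydroxylases and targets of the list, 12 rose and 16 were not called, with a median log2 fold change of 0.22 over the 28. The targets Bnip3l, Ddit4 and Ndrg1 were among those not called.

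The glycolytic HIF targets had 13 of 21 genes called higher and 0 lower, with a median log2 fold change of 0.36. The other 8 were not called. Among these, 3 had a negative log2 fold change, namely Pfkfb3 (-0.09, both Fat libraries below both Con libraries), Hk2 (-0.03) and Pfkfb4 (-0.01). Slc2a1, the glucose transporter GLUT1, had a log2 fold change of 0.83 and Slc16a3, the lactate exporter MCT4, of 0.77, against 0.61 for the enolase Eno2 and 0.62 for Gapdh. Gapdh is not a safe example, since 47.1% of its stretches were shared and the deposited values held only 3.28 ± 0.412 CPM of it in Con. Of the glycolytic targets, shared sequence was measured only for Slc2a1, Slc16a3, Eno2 and Gapdh. Of the 18 tested HIF targets outside both lists, 5 rose and 0 fell, with a median of 0.19. These were Angptl4, an inhibitor of lipoprotein lipase (log2 fold change 2.41), Hilpda, a lipid droplet protein (2.33), Hmox1, haem oxygenase (0.95), Vegfa, the angiogenic growth factor (0.76), and Gys1, glycogen synthase (0.50). Nos2, which encodes inducible nitric oxide synthase, had the most negative log2 fold change of that list, with 4.45 and 3.31 CPM in Con and 2.65 and 0.537 CPM in Fat. Both Fat libraries lay below both Con libraries, but Nos2 was not called (log2 fold change -1.57, limma adjusted p = 0.151). Angptl4 and Hilpda are also known targets of lipid-sensing nuclear receptors.

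A further list held collagen-modifying enzymes and histone demethylases outside the 33, with P4hb, Tet2 and Tet3. It had 3 of 18 tested genes called higher and 0 lower, with a median log2 fold change of 0.10. Those that rose were Jmjd1c, a relative of Kdm3a (log2 fold change 0.44), Kdm5b, a demethylase of histone H3 lysine 4 (0.44), and Plod3, the third lysyl hydroxylase (0.22). Over these lists outside the 33 genes, 22 of 70 tested genes were called higher and 0 lower by limma.

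**Figure D4:**
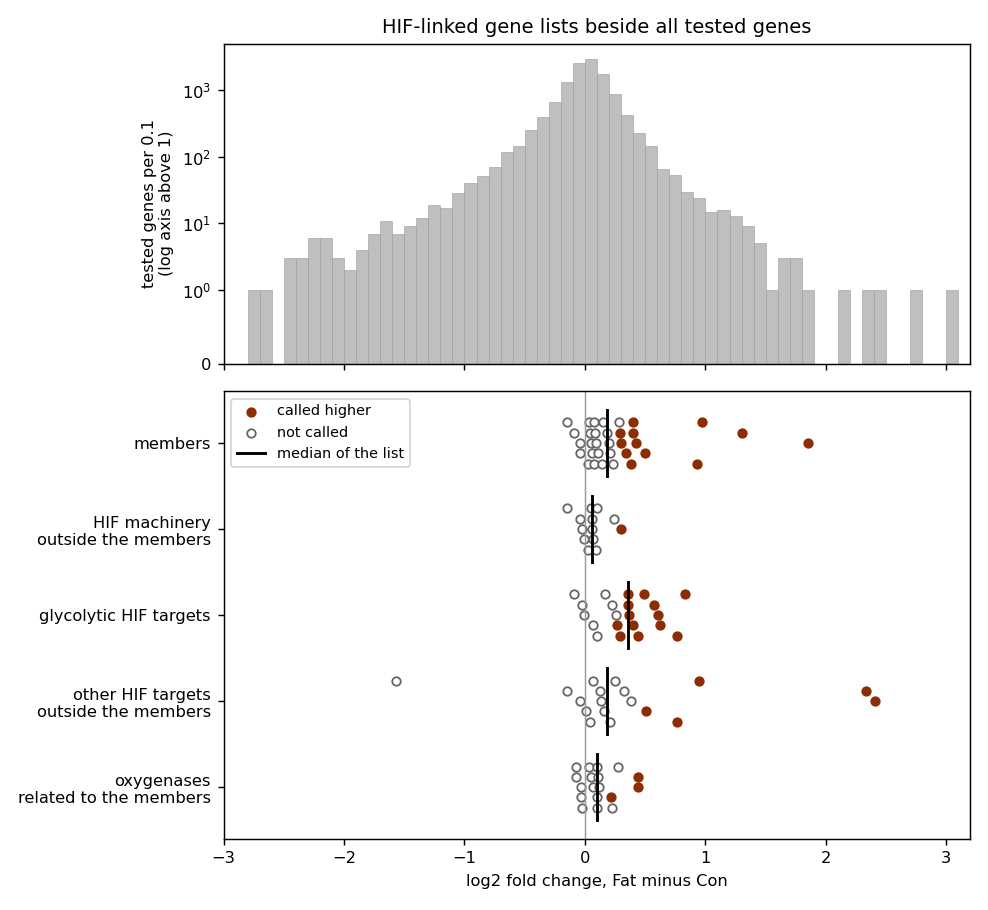
The upper panel counts all tested genes by log2 fold change, Fat minus Con, on an axis that is logarithmic above 1, and the lower panel shows each tested gene of the 33 (members) and of 4 other HIF-linked lists, filled where called higher, with a line at the list's median. The medians are 0.18 for the members, 0.05 for the machinery, 0.36 for the glycolytic targets, 0.19 for the other targets and 0.10 for the related oxygenases, a list that also holds P4hb.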

How the data were processed

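Libraries of polyadenylated RNA were made with a stranded kit and sequenced as single reads of 75 bases. The authors deposited CPM values, which are reads scaled by library size and a further factor for each library, and TPM values, which are also scaled for transcript length. The submitters' processing notes name build GRCm39. The aligner, annotation and strand setting are not given in the sources used here. Dividing the CPM values by that of 1 read gave whole reads within 0.001 for 100% of values, and these were used in the count tests.

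Fat was compared with Con on log2(CPM + 0.1), a scale that understates changes of low genes, by limma 3.58.1 (R 4.3.3) with a mean-variance trend. Genes needed 0.5 CPM or more in 2 or more of the 4 libraries. Benjamini-Hochberg adjustment ran over all 12470 tested genes, all tests were two-sided and the threshold for a call was an adjusted p-value under 0.05. An exact permutation test of 2 libraries against 2 cannot go below p = 0.333 and was not used. The fit was repeated with 1 CPM as pseudocount, without a filter, for genes averaging 5 CPM or more, on TPM, with median-ratio scaling, with replicate blocks, without the trend, on unadjusted p-values, with each library left out, and edgeR 4.0.16 (quasi-likelihood) and DESeq2 1.42.0 on the recovered reads. The study names edgeR, which was not the main test because the deposited values are CPM. The fits were tested on simulated counts. The changes planted there were larger than those of most of the called genes described here, so smaller changes were not covered.

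The 33 genes, the comparison lists and the marker lists were chosen with earlier results of these data known. Every one of the 33 is reported by role, with full statistics for those called and for the HIF subunits, regulators and prolyl hydroxylases. Of each comparison list, up to 4 called genes with the largest absolute log2 fold change are named. Gys1, Nos2, Pfkfb3, Hk2 and Pfkfb4 were added after their values were seen. Marker lists also covered endothelial, T and B, dendritic and erythroid cells, which summed to at most 40.9, 20.3, 0.880 and 0.244 CPM in a library. Shared sequence is the percentage of 75-base stretches of GENCODE vM21 transcripts, taken every 5 bases, that aligned to another gene with at most 2 mismatches (BWA 0.7.19). Upstream sequences came from RefSeq on GRCm38.p6, with Ero1l matched through a synonym. No window was used here for Tpd52, Bhlhe40, Plod2, Bnip3l, Ndrg1, Kdm4b and Epas1. The reference is not the build of the deposited values, so no gene coordinates are given beside these windows.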

Additional observations from a re-analysis of the deposited data

How the results depend on the processing

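Each group had 2 libraries, and Adm, Egln3 and Ankrd37 had fewer than 300 reads in each library. The 33 genes had 12 called higher with a pseudocount of 1 CPM (1124 of all genes called), with no filter (955), with median-ratio scaling (1164), and with edgeR and DESeq2, against 11 with the TPM values (791), 9 for genes averaging at least 5 CPM (927) and 16 at an unadjusted p of at most 0.05, and 0 were called lower under every alternative run. Requiring a mean of at least 5 CPM removed Ankrd37, Egln3 and Adm from the test and took the median log2 fold change of the members from 0.18 to 0.15. Without the mean-variance trend, 31 of all genes were called against 1122, and 2 of the 33, and the cause was not tested. At an unadjusted p of at most 0.05, 3008 of all genes were called. Leaving out 1 library at a time gave between 529 and 1131 calls over all genes and between 6 and 10 among the 33, with the lone library of a group assumed to vary like the others. In those fits the log2 fold change ranged across 0 for Hif1a (-0.20 to 0.12), Epas1 (-0.15 to 0.073), Vhl (-0.0047 to 0.12), Egln2 (-0.11 to 0.21), Higd1a (-0.044 to 0.19), Cited2 (-0.16 to 0.25), Ddit4 (-0.27 to 0.44) and Ndrg1 (-0.26 to 0.088), none of which was called in any of them. The deviations of libraries with the same number from their group means correlated at 0.20 over the tested genes and at 0.339 over the 9760 averaging at least 5 CPM. The labels give no shared origin for a number, and with 2 pairs the numbers were not taken as pairing. With the replicate block, 2520 of all genes and 15 of the 33 were called, Narf, Tpd52 and Zfp292 being the added ones. Over the single-gene results of the 33 and the 13 alternatives other than the unadjusted p, 387 kept their direction and call, 25 lost the call, 4 gained it and 10 changed sign.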
